A study of Mus musculus with 7 samples.

Results

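The RNA of 9 genes that encode proteins of the myelin sheath was followed across oligodendrocyte lineage cells (OLCs) of the adult mouse brain. The genes were Mbp, Mobp, Cnp, Mal, Cldn11, Mog, Mag, Opalin and Ermn, taken by symbol from the 27998 genes of the count table. All 9 were present, each in 1 row. Their levels were described in the 11 clusters of cells that the authors annotated and in the 3 libraries that were sequenced.

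The libraries were made by droplet-based single-cell RNA sequencing at P90 (11 to 14 weeks of age) on a mixed C57BL/6-B6CBA background, and the labels give the region as motor and cingulate cortex, whereas the methods name neocortex and corpus callosum for these cells. Emx1-Cre, which is active in the dorsal forebrain, switches the Sox10-GFP-tdTom reporter from GFP to tdTom, so that tdTom marks OLCs of dorsal origin and GFP those of ventral origin. Control dOLCs were tdTom+ cells and control vOLCs were GFP+ cells, both of Emx1-Cre:Sox10-GFP-tdTom mice. Ectopic vOLCs were GFP+ cells of mice with a further allele, Sox10-GFP-DTA, in which the same Cre also turns on diphtheria toxin fragment A (DTA) in dorsal OLCs and removes most of them. All 3 libraries therefore carry Emx1-Cre and the reporter, and sorting kept Sox10-expressing cells only. Cells of 4 control and 2 ablated mice were pooled and the files do not tell mice apart, so each condition was 1 library. No test between conditions was possible, and every interval given here is a 95% interval for counting error alone.

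Oligodendrocytes wrap axons in layers of membrane that are compacted by basic and proteolipid proteins, sealed by junction proteins and anchored to the axon by adhesion molecules. OPCs, the proliferating precursors, do not form myelin; they pass through committed (COP), newly formed (NFOL) and myelin-forming (MFOL) stages to mature oligodendrocytes (MOL), which occur as several subtypes in the adult brain. Transcription of myelin genes in this lineage is known to depend on the transcription factors SOX10 and MYRF.

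The authors' filter kept 5804 control dOLCs, 925 control vOLCs and 2562 ectopic vOLCs, holding 23078181, 4846391 and 14293675 UMIs, with medians of 3489.5, 5022 and 5318.5 UMIs per cell and of 3491, 5069 and 5478.5 in MOL5/6. Levels are summed UMIs of a gene per 1000000 UMIs of the same library and cluster (CPM). The protocol counts 3′ ends, so no division by transcript length was made and levels are not compared between genes. MOL5/6, the most numerous subtype, joined MOL5/6a to MOL5/6d and held 3777, 561 and 1842 cells of the 3 libraries in the order above. OPCs numbered 853, 121 and 330. The OPC annotation was in keeping with its markers. The 4 OPC markers Pdgfra, Cspg4, Ptprz1 and C1ql1 summed to between 7569 and 9824 CPM in OPCs and between 49.9 and 112 CPM in MOL5/6. Markers of committed cells, of MOL1 and of MOL2 were highest in COP/NFOL/MFOLa, MOL1 and MOL2a. Myelin-forming markers (Ctps, Tmem2 and Opalin) were lower in MFOLb (1357, 1354 and 1749 CPM) than in MOL5/6 (1669, 1601 and 2129 CPM). The 5 MOL5/6 markers Ptgds, Il33, Car2, Apod and Grm3 summed to 34183, 38501 and 34858 CPM in MOL5/6c. MOL1 stood above this, at 36566, 53520 and 46872 CPM, and below MOL5/6 as a whole. Markers of Schwann cells, the myelin-forming cells of peripheral nerves that share several of the 9 genes, had 0 UMIs in MOL5/6 of every library. Those of microglia and of endothelium summed to at most 17.7 CPM in OPCs and in MOL5/6. In OPCs, neuron markers (Snap25, Syt1, Meg3 and Rbfox3) summed to 1090 to 1262 CPM and the 4 astrocyte markers (Aqp4, Gja1, Aldoc and Slc1a3) to 630 to 691 CPM, and their part in the OPC values was not tested. The libraries shared 39 barcode sequences, each found in 2 of them.

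In MOL5/6 the 9 genes together took 3.36% (3.35 to 3.37) of all UMIs of control dOLCs, 3.42% (3.40 to 3.44) of those of control vOLCs and 3.82% (3.81 to 3.83) of those of ectopic vOLCs. In OPCs the same genes took 0.747% (0.736 to 0.757) of UMIs in the dorsal library, 0.351% (0.333 to 0.370) in the control ventral and 0.361% (0.350 to 0.372) in the ectopic library. The ectopic library thus stood highest in pooled MOL5/6, whereas the control dorsal library stood highest in precursors. Within the subclusters of MOL5/6 the order was not the same. The shares of dorsal, control ventral and ectopic cells were 4.06%, 3.70% and 3.99% in MOL5/6a, 3.22%, 3.14% and 3.08% in MOL5/6b, 3.13%, 3.21% and 3.09% in MOL5/6c, and 3.61%, 3.32% and 3.77% in MOL5/6d, so that the ectopic share was the highest in MOL5/6d alone of these 4. The cluster COP/NFOL/MFOLa, which holds cells on the way to myelination, had the highest shares among the clusters of both control dOLCs and ectopic vOLCs, at 4.50% and 4.76%. In control vOLCs it had 3.60%, below the 3.70% of MOL5/6a and the 3.61% of MOL2a.

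**Figure D1:**
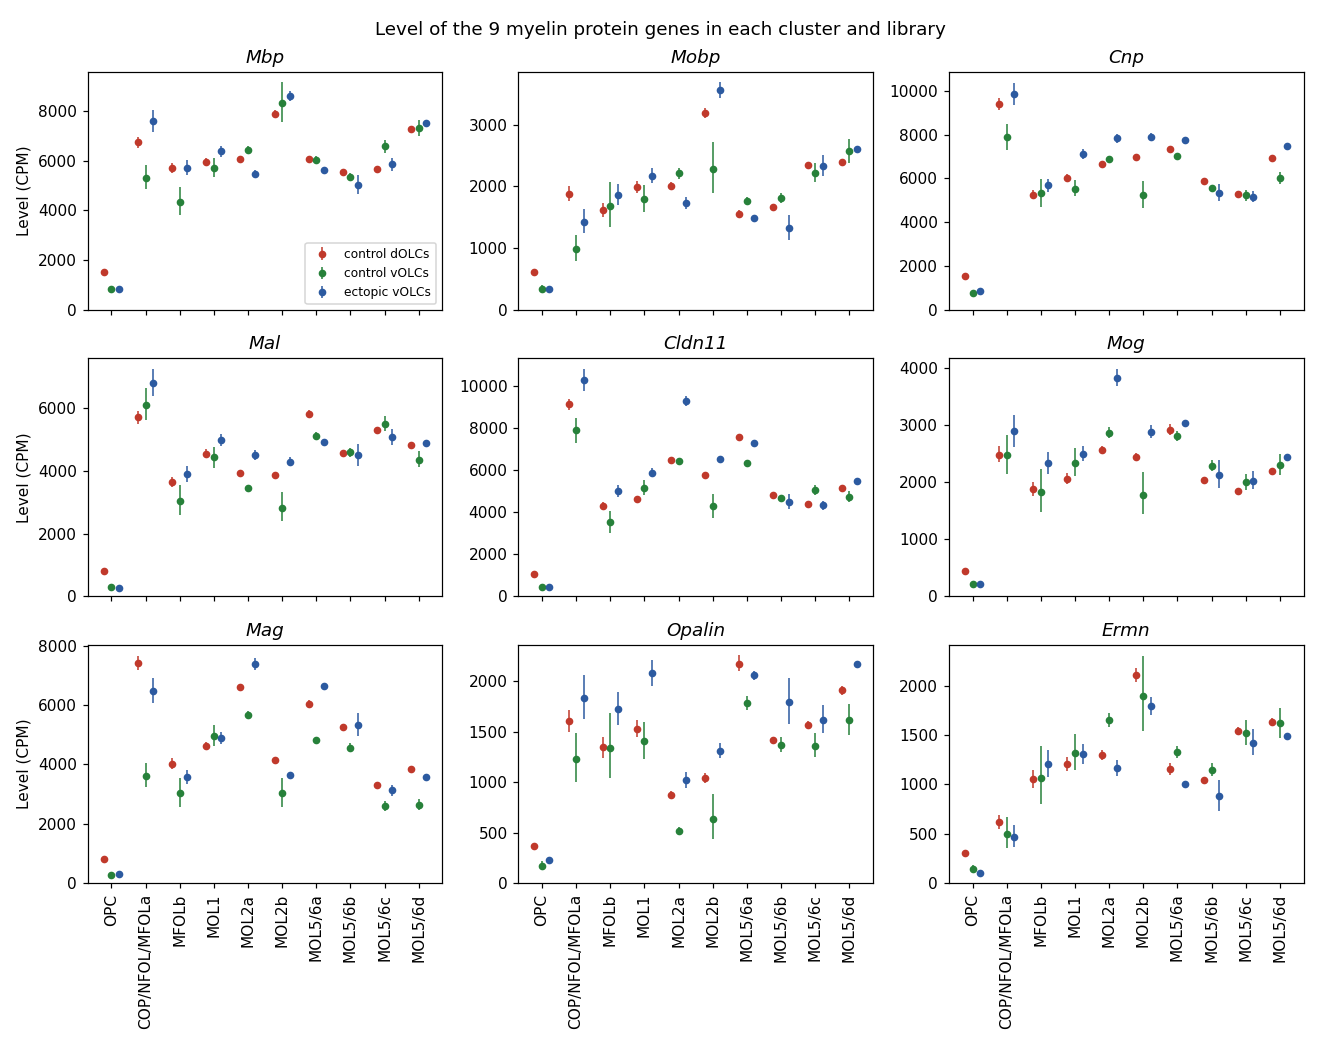
Level of each of the 9 genes (CPM, linear axis from 0) in 10 clusters, with 1 point per library and 95% Poisson intervals; cycling OPCs are left out. All 9 genes were lowest in OPCs in every library, and within OPCs the control dOLC point lay above the other 2.

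Among the proteins of compact myelin, Mbp encodes myelin basic protein, which holds the cytoplasmic faces of the membrane together. Mbp stood at 6035 CPM in MOL5/6 of control dOLCs, 6002 CPM in those of control vOLCs and 6703 CPM in those of ectopic vOLCs. The ectopic level was above both controls, with a log2 ratio of 0.15 (0.14 to 0.17) to control dOLCs. Mobp encodes another basic protein of compact myelin and had 2019, 1908 and 2152 CPM. Its log2 ratio of ectopic to dorsal cells was 0.09 (0.07 to 0.12). Mal, a lipid raft proteolipid that takes part in the transport of myelin components, had 4944, 4922 and 4913 CPM. These 3 levels lay within counting error of each other, with a log2 ratio of -0.01 (-0.03 to 0.01).

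Of the proteins of channels, junctions and the outer membrane, Cnp encodes the cyclic nucleotide phosphodiesterase that keeps cytoplasmic channels through the sheath open. Cnp had 6097, 6233 and 7481 CPM in the same order, a log2 ratio of 0.30 (0.28 to 0.31) to control dOLCs. Cldn11, the claudin of the tight junctions between myelin layers, had 5020, 5507 and 6155 CPM, and here the control ventral level lay between the other 2 with cells pooled. Ectopic cells exceeded dorsal ones by a log2 ratio of 0.29 (0.28 to 0.31) and control ventral ones by 0.16 (0.14 to 0.19). Opalin, a glycoprotein of the oligodendrocyte membrane found at the paranodal loops, had 1645, 1582 and 2106 CPM. Of the 9 genes it had the highest log2 ratio in MOL5/6 of ectopic cells to either control, 0.36 (0.33 to 0.38) for the dorsal and 0.41 (0.37 to 0.46) for the ventral one.

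Of the surface proteins, Mog encodes an immunoglobulin-like protein on the outermost layer of the sheath and had 2097, 2490 and 2656 CPM. In contrast to Opalin, both ventral libraries stood above control dOLCs for Mog, with log2 ratios of 0.25 (0.21 to 0.28) for control vOLCs and 0.34 (0.32 to 0.36) for ectopic vOLCs. Mag, the adhesion protein that faces the axon, had 4449, 4257 and 4770 CPM, and its log2 ratio of ectopic to dorsal cells was 0.10 (0.08 to 0.12). Ermn, a cytoskeletal protein that appears late in myelination, had 1330, 1321 and 1296 CPM. The ectopic level of Ermn was the lowest, at a log2 ratio of -0.04 (-0.07 to -0.01).

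No member reached a log2 ratio of 0.5 in either direction between ectopic vOLCs and control dOLCs in MOL5/6, where 2.05% of the 5218 genes compared were that much higher and 14.8% that much lower. At a log2 ratio of 0.25, 4 of 9 members were higher (Cnp, Cldn11, Mog and Opalin) beside 14.6% of all genes, and 0 were lower beside 28.2%. The median of the members was 0.15, and that of all genes compared -0.03. Against control vOLCs the member median was 0.16, with 2 members (Cnp and Opalin) higher by at least 0.25 beside 16.4% of genes. Between the 2 control libraries the member median was -0.01 and 0 members were higher by at least 0.25 beside 12.6% of genes. Scaling by TMM factors raised every log2 ratio of ectopic to dorsal MOL5/6 by 0.17, and the member median to 0.32. Then 2 members, Mog and Opalin, passed a log2 ratio of 0.5, beside 7.40% of all genes, and Ermn and Mal turned from lower to higher, Mal from a ratio whose interval included 0.

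In all oligodendrocytes, from MFOLb to MOL5/6, the picture was close to that in MOL5/6. No member passed a log2 ratio of 0.5 between ectopic and dorsal cells, beside 1.55% of 5294 genes higher and 14.1% lower. The same 4 members, Cnp, Cldn11, Mog and Opalin, were higher by at least 0.25, beside 12.0% of genes. Opalin stood at 1504, 1273 and 1987 CPM, and against control vOLCs it was the 1 member past 0.5, at 0.64 (0.60 to 0.68), beside 2.80% of 5649 genes. This pool differed in make-up too, since MOL2a, where Opalin was low, held 10.3% of these cells in the dorsal library, 22.7% in the control ventral and 5.23% in the ectopic one, and within MOL5/6 the same ratio was 0.41.

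The cells pooled as MOL5/6 were not of the same make-up in the 3 libraries. MOL5/6b held 51.5% of these cells in the dorsal library, 42.1% in the control ventral and 2.28% in the ectopic one. MOL5/6a held 8.82%, 42.2% and 48.9%, MOL5/6c held 24.6%, 9.45% and 3.42%, and MOL5/6d held 15.1%, 6.24% and 45.4%. The subclusters that were rare in ectopic cells, MOL5/6b and MOL5/6c, were those with the lower shares of UMIs from the 9 genes in control dOLCs, 3.22% and 3.13% beside 4.06% in MOL5/6a and 3.61% in MOL5/6d. When the 4 subclusters were given equal weight in each library, the member median fell from 0.15 to -0.02, and that of all genes compared from -0.03 to -0.08. Equal weight leans on few cells in places, since MOL5/6b and MOL5/6c held 42 and 63 ectopic cells. MOL5/6c and MOL5/6d held 53 and 35 control vOLCs. With equal weight, Mog kept a ratio of 0.10 (0.05 to 0.15) and Opalin one of 0.11 (0.06 to 0.17), while Mbp (-0.03), Mobp (-0.04) and Cldn11 (-0.02) turned from higher to lower, with intervals that included 0 for Mobp and Cldn11. Cnp was at 0.02 (-0.01 to 0.04). Mag was at 0.02 (-0.02 to 0.06). Mal and Ermn were lower, at -0.08 (-0.11 to -0.04) and -0.16 (-0.23 to -0.10). Against control vOLCs, equal weight lowered the member median from 0.16 to 0.036. Mbp at -0.07 (-0.11 to -0.03) and Mobp at -0.11 (-0.17 to -0.04) turned from higher to lower there, Mag was at 0.35 (0.31 to 0.40), Opalin at 0.32 (0.24 to 0.39) and Ermn at -0.23 (-0.31 to -0.14).

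Equal weight also changed the ratios of control vOLCs to control dOLCs, with 4 member intervals then above 0 and 5 below. How many of all genes had intervals that excluded 0 was not counted. The member median was -0.067, beside -0.008 for all genes compared. Mag had the ratio farthest from 0, at -0.33 (-0.37 to -0.30) in place of -0.064, and Opalin followed at -0.21 (-0.26 to -0.15) in place of -0.057. Cldn11 turned from 0.13 to -0.071 (-0.10 to -0.04) and Cnp from 0.032 to -0.094. Mbp (0.041), Mobp (0.069) and Ermn (0.066) turned from lower to higher. Mal was at -0.067, and Mog went from 0.25 to 0.064 (0.019 to 0.11).

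**Figure D2:**
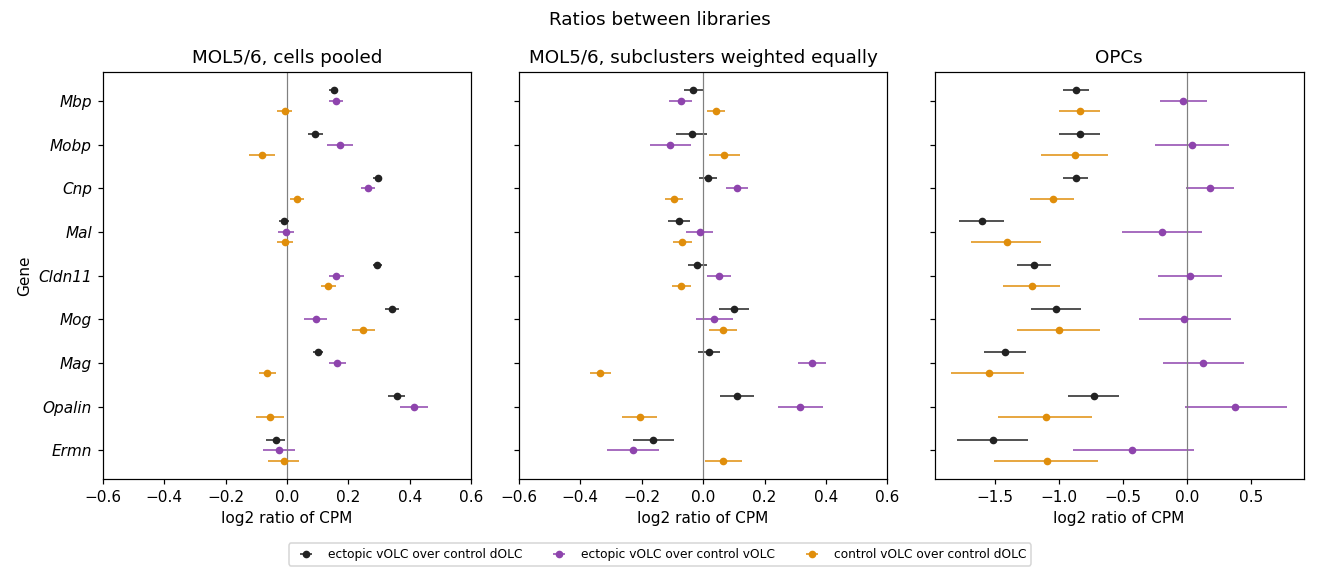
Log2 ratios of CPM between libraries for the 9 genes, in MOL5/6 with cells pooled, in MOL5/6 with its 4 subclusters weighted equally, and in OPCs; bars are 95% intervals for counting error and the 3 colours are the 3 pairs of libraries. Most ectopic to dorsal ratios in pooled MOL5/6 lie right of 0 and move to about 0 with equal weight, while in OPCs all 9 lie left of -0.7.

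Within single clusters of oligodendrocytes with at least 20 cells, the members did not move as one. Mog was higher in ectopic vOLCs than in control dOLCs in 8 of 8 clusters, with a log2 ratio from 0.06 in MOL5/6a to 0.58 in MOL2a. Of all 5218 genes, 2.30% were higher in all 8. Opalin was higher in 7 of 8 clusters and lower in MOL5/6a, at -0.08. Against control vOLCs, Opalin was higher in 6 of 6 clusters, from 0.21 in MOL5/6a to 0.99 in MOL2a, as were 2.77% of genes. Ermn went the other way and was lower in 6 of 6, as were 9.99% of genes. Its log2 ratio ran from -0.01 in MOL1 to -0.51 in MOL2a, with 3 intervals below 0. Opalin was also lower in control vOLCs than in control dOLCs in 6 of 6 clusters, as were 5.97% of genes. That ratio went down to -0.77 in MOL2a, with 4 intervals below 0. Cldn11 was uneven, with a log2 ratio of ectopic to dorsal cells of 0.52 in MOL2a, where its level was 6466, 6427 and 9294 CPM in the order dorsal, control ventral and ectopic, and of -0.099 in MOL5/6b, its lowest. MOL2a is a subtype that was sampled with 498, 179 and 115 cells.

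The oligodendrocyte clusters, from MFOLb to MOL5/6d and with at least 20 cells, differed in which myelin genes they carried most of. These clusters were made from the same counts, and the members may have taken part in defining them, so the differences are a description. Among them Opalin was lowest in MOL2a in every library, at 874, 513 and 1019 CPM. The log2 ratio of Opalin in MOL2a to MOL5/6 was -0.91, -1.63 and -1.05, with all 3 intervals below 0. Among the same clusters Mag had its highest level in MOL2a and its lowest in MOL5/6c in all 3 libraries, and the highest was 2.01, 2.19 and 2.36 times the lowest. Mbp, Mobp and Ermn reached their highest levels in MOL2b in both control dOLCs and ectopic vOLCs. MOL2b had only 6 cells in control vOLCs and is left out there.

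Inside MOL5/6, subclusters a, c and d differed in opposite directions for different members, and most of these differences recurred in all 3 libraries. MOL5/6a over MOL5/6c gave log2 ratios from 0.87 to 1.09 for Mag, from 0.49 to 0.66 for Mog, from 0.33 to 0.78 for Cldn11 and from 0.43 to 0.59 for Cnp. The same contrast gave -0.65 to -0.33 for Mobp and -0.50 to -0.20 for Ermn. MOL5/6d over MOL5/6a turned this around. There Mobp lay between 0.54 and 0.80, Ermn between 0.29 and 0.57 and Mbp between 0.26 and 0.42, while Mag lay between -0.90 and -0.65 and Cldn11 between -0.56 and -0.40. For each of these members the interval lay on the same side of 0 in 3 of 3 libraries.

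Across the 22 combinations of oligodendrocyte cluster and library with at least 20 cells, 2 sets of members therefore appeared, which were picked out after their values had been seen. Mbp, Mobp and Ermn had Pearson correlations of log2(CPM + 1) of 0.88 (Mbp and Mobp), 0.84 (Mbp and Ermn) and 0.93 (Mobp and Ermn). Cnp, Cldn11 and Mog had 0.85 (Cnp and Cldn11), 0.84 (Cnp and Mog) and 0.95 (Cldn11 and Mog). Mag was nearest to the second set, at 0.65 with Cldn11, and farthest from the first, at -0.57 with Mobp. Mal and Opalin were nearest to each other, at 0.69. Of the 36 pairs, 19 were above 0, so the 9 genes did not vary together as a single programme across these points. The points share 3 libraries and their depth, and clusters are not replicates. Between single cells of MOL5/6 thinned to 1000 UMIs, the median correlation of the 36 pairs was 0.057, 0.059 and 0.052 in the 3 libraries. Cells then held a few UMIs per gene, and the part of such low counts in these values was not tested.

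**Figure D3:**
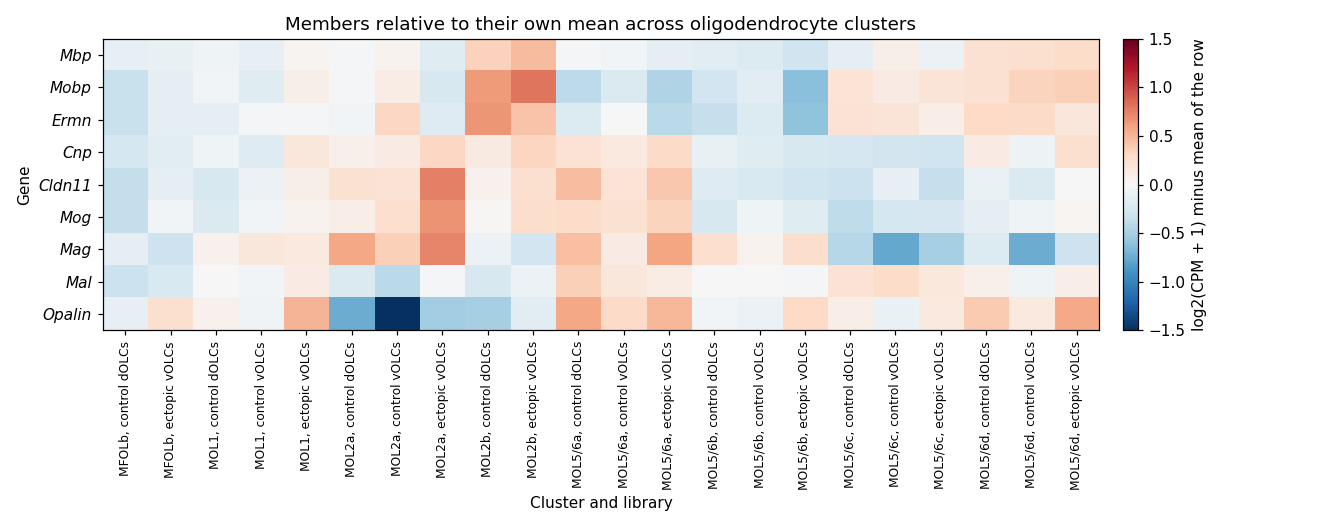
Level of each gene in the 22 cluster and library combinations, as log2(CPM + 1) minus the mean of its row (colour scale from -1.5 to 1.5). Mbp, Mobp and Ermn are high in MOL2b, where it is shown, and in MOL5/6d, while in control vOLCs Ermn is highest in MOL2a; Cnp, Cldn11, Mog and Mag are high in MOL2a and MOL5/6a; Opalin is lowest in MOL2a.

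The genes outside the members whose level was most like the mean of the 9, over the same 22 points and among 7024 genes ranked, were Sec11c (Pearson 0.82), Slc48a1 (0.81), Fez1 (0.80), Taldo1 (0.80) and Sirt2 (0.79). Sirt2 encodes a tubulin deacetylase found in myelin.

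Sequence upstream of these genes is shown for both sets and for Opalin, since SOX10, the factor on whose gene the reporter was built, binds the letters ACAAAG or close variants. The windows run from 250 to 51 bases before the transcription start given by RefSeq on GRCm38.p6, the assembly that the mm10 build of the count table corresponds to, and 8 of 9 members had such an entry. Capitals mark ACAAAG on either strand (CTTTGT on the strand shown), and all sequences are written 5′ to 3′ on the strand of the gene.

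Mobp (chr9:120149492-120149691, strand plus): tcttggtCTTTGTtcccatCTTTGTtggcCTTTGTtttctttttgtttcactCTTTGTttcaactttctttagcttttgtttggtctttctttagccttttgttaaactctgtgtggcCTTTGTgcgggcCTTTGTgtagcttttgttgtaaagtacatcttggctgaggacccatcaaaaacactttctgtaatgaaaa

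Ermn (chr2:58052915-58053114, strand minus): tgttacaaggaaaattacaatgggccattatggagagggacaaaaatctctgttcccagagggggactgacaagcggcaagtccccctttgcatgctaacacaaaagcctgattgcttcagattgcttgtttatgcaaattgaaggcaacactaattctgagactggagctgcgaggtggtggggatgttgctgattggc

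Cldn11 (chr3:31149670-31149869, strand plus): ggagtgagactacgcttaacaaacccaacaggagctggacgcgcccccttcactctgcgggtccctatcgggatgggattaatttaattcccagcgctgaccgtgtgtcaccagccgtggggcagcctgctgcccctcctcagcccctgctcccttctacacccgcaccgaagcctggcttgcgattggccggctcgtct

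Mog (chr17:37023449-37023648, strand minus): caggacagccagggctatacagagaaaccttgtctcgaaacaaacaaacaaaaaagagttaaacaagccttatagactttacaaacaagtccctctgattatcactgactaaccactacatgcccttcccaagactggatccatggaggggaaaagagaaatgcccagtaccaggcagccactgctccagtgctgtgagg

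Opalin (chr19:41077164-41077363, strand minus): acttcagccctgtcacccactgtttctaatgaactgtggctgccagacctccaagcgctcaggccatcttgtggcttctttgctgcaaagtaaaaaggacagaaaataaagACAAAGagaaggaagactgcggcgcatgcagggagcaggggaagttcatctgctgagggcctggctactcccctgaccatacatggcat

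Mobp held 6 matches in its 200 bases, all on the reverse strand. Of the 32851 windows of the same length in the RefSeq table, 13.6% held at least 1 match, and Mobp was the only window with 6. Ermn, which varied most like Mobp, held 0 matches, as did Mal, Cldn11 and Mog, while Opalin and Cnp held 1. Mag has 3 entries, of which 2 overlapping windows held the same match. The letters CTGGNAC, the MYRF motif with 1 base left free, occurred on either strand at 2 places in Cnp, at 1 in Mog and in 2 of the 3 Mag windows, beside 13.2% of all windows with at least 1. The E-box CAGCTG, which reads the same on both strands, occurred in 0 of these windows, beside 10.3% of all. In these windows 0 of the ACAAAG matches overlapped a match of CTGGNAC. The starts taken for Cnp and for all 3 Mag windows did not open a transcript of the GENCODE annotation. A match is a description of the sequence only.

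In OPCs the order of the libraries was different from that in mature cells. Mbp stood at 1515 CPM in dOPCs of the control library, 849 CPM in control vOPCs and 831 CPM in ectopic vOPCs. Mobp had 617, 337 and 346 CPM in the same order, and Cnp 1570, 760 and 861 CPM. For these 3 genes both ventral libraries were at about the same level and the dorsal library stood apart from them.

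The same held for the other members. Mal had 797 CPM in dOPCs against 301 and 263 CPM, Cldn11 1050 against 453 and 460 CPM, and Mog 440 against 220 and 217 CPM. Mag had 806 against 276 and 301 CPM, Opalin 369 against 172 and 223 CPM, and Ermn 302 against 142 and 106 CPM. The 95% Poisson intervals reached at most 7.21% of the level in dOPCs, 29.9% in control vOPCs and 19.0% in ectopic vOPCs.

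As log2 ratios, all 9 members were lower by at least 0.5 in ectopic vOPCs than in dOPCs, where 7.45% of 6110 genes were that much lower. The ratios ran from -0.73 (-0.93 to -0.53) for Opalin to -1.60 (-1.78 to -1.43) for Mal, with a median of -1.02 beside a median of 0.08 for all genes compared. All 9 were also lower in control vOPCs than in dOPCs, where 15.4% of 5863 genes were that much lower, from -0.84 for Mbp to -1.55 for Mag. These 2 comparisons share the dorsal library. Between ectopic and control vOPCs the median was 0.021, 0 members differed by 0.5 beside 21.8% of 5721 genes higher and 13.5% lower, and the intervals of all 9 included 0, the widest being that of Ermn at -0.43 (-0.89 to 0.055). The 121 control vOPCs held 56 UMIs of Ermn and 335 of Mbp, whose ratio of -0.030 had the narrower interval of -0.21 to 0.15.

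OPC levels were then set against the MOL5/6 level of the same library. Dorsal OPCs had between 16.1% (Mal) and 30.6% (Mobp) of the MOL5/6 level, control ventral ones between 6.12% and 17.7% and ectopic ones between 5.35% and 16.1%. Mal was lowest and Mobp highest in each. The 5 MOL5/6 markers Ptgds, Il33, Car2, Apod and Grm3 had between 18.4% and 24.4% of their MOL5/6 level in OPCs of the dorsal library, between 8.77% and 17.4% in those of the control ventral and between 5.83% and 9.51% in those of the ectopic library. The amount by which dOPCs exceeded ectopic vOPCs came to between 8.88% (Opalin) and 14.7% (Ermn) of the MOL5/6 level of control dOLCs for the members, and to between 7.76% and 14.4% for the 5 markers. The amount by which dOPCs exceeded control vOPCs came to between 10.0% and 13.9% for the members and to between 3.71% and 10.6% for the markers. In the opposite direction, OPC markers in MOL5/6 were at 1.10% to 2.14% of their OPC level in the dorsal library, 0.473% to 0.828% in the control ventral and 0.396% to 0.856% in the ectopic one. Counts of MOL5/6 markers in OPCs and of OPC markers in MOL5/6 were thus both highest, as shares, in the control dOLC library. The part of free RNA, or of barcodes holding 2 cells, in the OPC values was not tested.

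**Figure D4:**
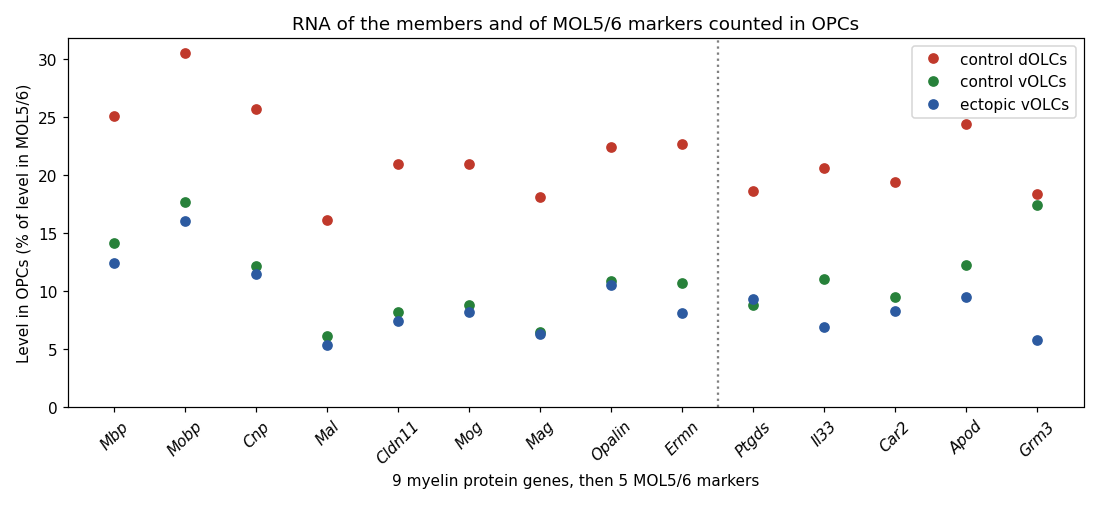
Level in OPCs as a percentage of the level in MOL5/6 of the same library, for the 9 genes and, right of the dotted line, for 5 markers of MOL5/6 (linear axis from 0, 1 point per library). Control dOLCs are highest for all 14 genes.

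At single-cell resolution, with every cell thinned to 1000 UMIs, dOPCs held a median of 6 UMIs of the 9 genes, control vOPCs 4 and ectopic vOPCs 3. OPCs with 0 such UMIs made up 0% of 853 dOPCs, which allows up to 0.352%, 3.31% of control vOPCs and 3.64% of ectopic vOPCs. The whole distribution of dOPCs was therefore displaced, and it also had a longer tail, with a 99th percentile of 29 UMIs beside 8.80 and 10.1 and a maximum of 63 beside 11 and 20. Mbp was counted in 72.1% (69.0 to 75.1) of thinned dOPCs, 57.9% (48.5 to 66.8) of control vOPCs and 52.4% (46.9 to 57.9) of ectopic vOPCs. Without thinning the shares were 95.7%, 92.6% and 95.2% at median depths of 2795, 3454 and 3421.5 UMIs, near the ceiling in each library. Some members with lower levels than Mbp in dOPCs came apart without thinning too, with shares of 76.3%, 62.0% and 58.2% for Mal, 79.8%, 57.9% and 62.1% for Mag, and 54.5%, 37.2% and 30.6% for Ermn. Others came apart less, with 88.7%, 76.0% and 76.4% for Cldn11 and 77.4%, 64.5% and 70.9% for Mobp. Mog had 62.3%, 55.4% and 53.9%, and Opalin 58.1%, 47.1% and 52.1%. Without the 6% of barcodes with the highest doublet score per library, which left out 4.92% of dOPCs, 0% of control vOPCs and 0.606% of ectopic vOPCs, the member median was -0.71 in place of -1.02 and all 9 members were still lower by at least 0.5, beside 6.47% of 6046 genes.

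**Figure D5:**
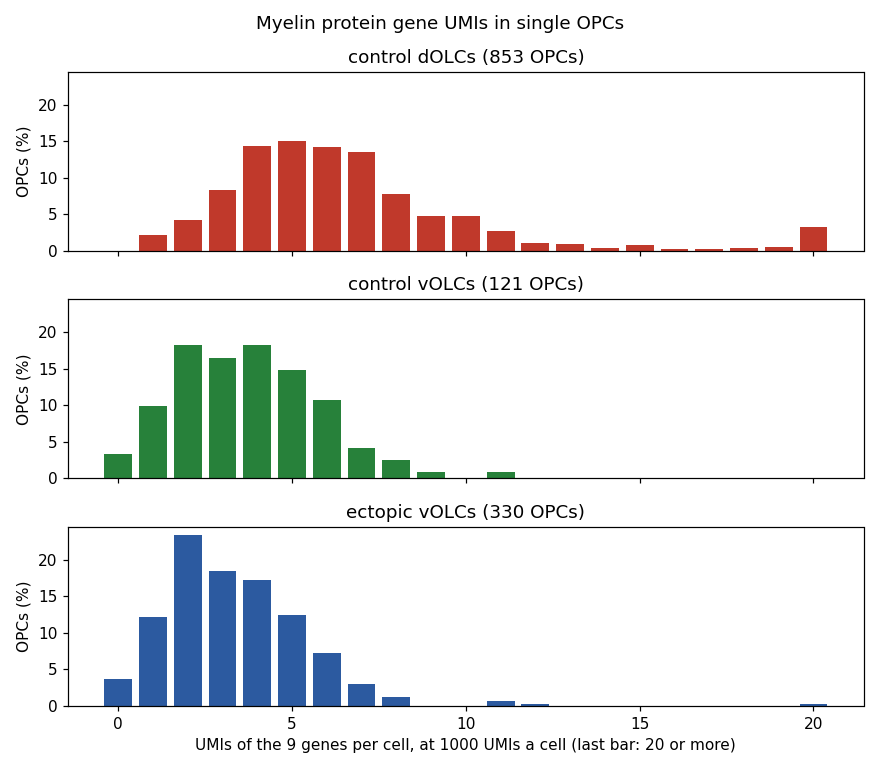
Share of OPCs (percent, linear axis) by the number of UMIs of the 9 genes per cell, after thinning to 1000 UMIs, in the 3 libraries; the last bar joins 20 and more. The bulk of control dOPCs lies at higher counts than both ventral libraries, and only it has an appreciable last bar.

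In MOL5/6 the spread between cells was narrow. The thinned sum of the 9 genes had a median of 32 UMIs in dorsal, 33 in control ventral and 38 in ectopic cells, with coefficients of variation of 0.258, 0.249 and 0.235. In COP/NFOL/MFOLa the 76 cells of control dOLCs ran from a 5th percentile of 6.75 UMIs through a median of 42 to a maximum of 91, above the 75 reached in MOL5/6. The members differed in this cluster. In summed CPM, Cldn11, Cnp and Mal stood above their MOL5/6 level in this cluster in every library, with log2 ratios from 0.52 to 0.86 for Cldn11, from 0.34 to 0.62 for Cnp and from 0.21 to 0.47 for Mal. For Mal this came from some of the cells, since at 1000 UMIs per cell 35.5%, 46.2% and 40.9% of the cells of this cluster had 0 UMIs of Mal, beside 1.25% to 2.33% in MOL5/6, and in control dOLCs the mean of 4.53 UMIs was then below the 4.87 of MOL5/6. Ermn and Mobp stood below it, from -1.47 to -1.11 for Ermn and from -0.95 to -0.10 for Mobp. With 13 and 22 cells, this cluster was thinly sampled in the ventral libraries. MFOLb, the next stage by name, held astrocyte marker RNA (Aqp4, Gja1, Aldoc and Slc1a3) at 1777 to 2786 CPM summed, beside 145 to 191 CPM in MOL5/6. The part of this RNA in the member levels of MFOLb was not tested.

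Beside the members, 26 other genes of the myelin sheath and the oligodendrocyte membrane were taken from a list. In MOL5/6 all 26 passed the filter, and by at least 0.5 none was higher and 2 were lower in the ectopic than in the dorsal library, beside the 2.05% and 14.8% of all genes. The median was 0.11, beside -0.03 for all genes. The highest were Pmp22 (0.48, 0.42 to 0.55), a tetraspan myelin protein, Evi2a (0.46, 0.42 to 0.50) and Pllp (0.42, 0.39 to 0.44), the proteolipid plasmolipin. The lowest were Padi2 (-1.19, -1.39 to -0.99), which encodes the enzyme that citrullinates myelin basic protein, Tmem88b (-0.54, -0.58 to -0.49) and the tetraspanin Tspan2 (-0.31, -0.35 to -0.27). Padi2 stood at 59.0 CPM in control dOLCs and 25.8 CPM in ectopic vOLCs. Against control vOLCs the median of the 26 was 0.003, with 13 above and 13 below 0, beside -0.02 for all genes. Control vOLCs over control dOLCs had a median of 0.12, beside -0.03 for all genes. In OPCs 24 of the 26 passed the filter in the comparison of ectopic with dorsal cells, and 11 were lower by at least 0.5, beside 7.45% of all genes. Their median was -0.40, beside 0.08 for all genes. Against control vOPCs the median was -0.083, beside 0.036 for all genes. There 2 were lower and 1 higher by at least 0.5, beside 13.5% and 21.8% of all genes.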

How the data were processed

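UMI counts were deposited by the authors as whole numbers without normalization, for 27998 genes and 10081 barcodes, together with their annotation of library and cluster. Per the submitters' processing notes and the methods, reads were counted with Cell Ranger (2.1.1 in the notes) on mm10 and clusters were made in Seurat, with names transferred from an earlier data set; 8 annotation columns were not used. Kept cells had over 200 and under 3000 genes and at most 15% mitochondrial counts, which left 9291 cells with 1257 to 12180 UMIs. Totals and depth per library stand in the report. The 4 P0 samples were not analysed here.

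UMIs were summed per library and cluster. Levels carry exact Poisson intervals, ratios conditional exact binomial intervals and shares Clopper-Pearson intervals, all at 95% and for counting error only; intervals with equal weight of subclusters used a normal approximation. Genes compared had 50 or more UMIs over the pair of libraries and were detected in 10% or more of the cells in either. With 1 library per condition no test was run, and calls are by size (log2 ratio of 0.5, or 0.25 as an alternative). Scrublet (scanpy 1.11.5, expected rate 0.06) called 1, 14 and 1 cells, too few to be of use, so doublets were not filtered; the 6% highest scores per library were left out in an alternative. Thinning drew 1000 UMIs per cell and left out 0 cells. Other alternatives were edgeR 4.0.16 TMM factors, DESeq2 1.42.0 size factors, totals without members and mitochondrial genes, cell means, a 10% mitochondrial limit and equal weight of subclusters. Control vOLCs were also taken as the control in place of control dOLCs. The steps were tested on simulated data. R was 4.3.3 and Python 3.11.15 (scipy 1.17.1, numpy 2.4.6, matplotlib 3.10.9, pandas 2.3.3).

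The members and lists were chosen with earlier results of these data known. The genes named are the 9 members, the 3 highest and 3 lowest of the 26 other sheath and membrane genes in MOL5/6, the 5 genes most like the mean of the members over 22 points with at least 20 cells, and the cell type markers.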

Additional observations from a re-analysis of the deposited data

Results flagged for a closer look

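For 7 members, ectopic over dorsal log2 ratios had opposite signs in MOL5/6 and in OPCs, with intervals on either side of 0. How many of all genes did so was not counted. The difference between cell types was not tested, since each condition was 1 library. The ratios in MOL5/6 and in OPCs were 0.15 and -0.87 for Mbp, 0.092 and -0.84 for Mobp, 0.30 and -0.87 for Cnp, and 0.29 and -1.19 for Cldn11. They were 0.34 and -1.02 for Mog, 0.10 and -1.42 for Mag, and 0.36 and -0.73 for Opalin. This holds for MOL5/6 with its subclusters pooled; with equal weight of the subclusters, of these 7 only Mog (0.10) and Opalin (0.11) had a MOL5/6 interval above 0, those of Mobp, Cnp, Cldn11 and Mag included 0, and Mbp was lower (-0.032).

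Within oligodendrocytes, 7 members had clusters on opposite sides of 0 in the same comparison, again untested and with no count over all genes. The highest and lowest cluster of those whose interval excluded 0 were MOL2b (0.12) and MOL2a (-0.15) for Mbp, MFOLb (0.20) and MOL5/6b (-0.34) for Mobp, and MOL2a (0.23) and MOL5/6b (-0.14) for Cnp. For Mal they were MOL2a (0.19) and MOL5/6a (-0.24), and for Cldn11 MOL2a (0.52) and MOL5/6a (-0.052). For Mag they were MOL2a (0.16) and MOL2b (-0.19), and for Opalin MOL1 (0.45) and MOL5/6a (-0.080). Of the clusters named, MOL5/6b and MFOLb held only 42 and 43 ectopic cells, and MFOLb also held astrocyte marker RNA.

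Barcodes that the filter removed also held RNA of the 9 genes. Their share of UMIs was 3.99% in the 388 barcodes removed from control dOLCs, 3.69% in the 114 from control vOLCs and 3.87% in the 288 from ectopic vOLCs, beside 3.12%, 3.20% and 3.55% over all kept cells of the same libraries. Of the removed barcodes, 280, 66 and 266 were over the limit on genes and 108, 48 and 22 over that on mitochondrial counts. The kept cells include OPCs, in which the share was lower.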

How the results depend on the processing

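No paired analysis was possible because a condition is 1 library, and leaving out a replicate was not run for the same reason. Over the values that answer a comparison, 44 of 68 alternatives left the value within its interval or its count within 1.5 times, 22 moved it and 2 reversed its sign. Over the values of single members, 108 of 225 stayed within the interval, 105 moved and 12 reversed. Of these 12, the 5 in OPCs arose from taking control vOLCs as the control, which is another comparison rather than a processing step. The cause of these differences was not tested, except that equal weight and scaling act by construction on the make-up and on the total.

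In MOL5/6 the member median of 0.15 was 0.32 with TMM factors, 0.34 with size factors and -0.019 with equal weight of the subclusters; 2 members passed a log2 ratio of 0.5 under either scaling, beside 7.40% and 8.47% of all genes. Without scaling 4 passed 0.25, and with either scaling 7 did, beside 35.6% and 37.5%. Equal weight reversed Mbp (-0.032), Mobp (-0.038) and Cldn11 (-0.019), and the scalings reversed Ermn (0.13 and 0.15) and lifted Mal, whose interval had included 0, to 0.16 and 0.18. In all oligodendrocytes the median of 0.12 was 0.31 and 0.32 under the scalings and 0.14 against control vOLCs, with 2, 2 and 1 members past 0.5 (7.06% and 7.40% of all genes under the scalings). Without scaling 4 members passed 0.25, and 6 did with either (35.9% and 37.0% of genes). Ermn was at 0.12 and 0.13 under the scalings. TMM moved all genes by 0.17 in MOL5/6 and 0.19 in all oligodendrocytes.

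In OPCs, with control vOLCs as the control, the median was 0.021 and 0 members passed 0.5. Mobp (0.038), Cnp (0.18), Cldn11 (0.021), Mag (0.12) and Opalin (0.37) turned positive there, each with an interval that included 0. Without the highest Scrublet scores the median against control dOLCs was -0.71. Thinned, the member share of UMIs was 3.29% in MOL5/6 of control dOLCs and 3.35% in control vOLCs, and 0.694%, 0.373% and 0.336% in OPCs of control dOLCs, control vOLCs and ectopic vOLCs. Unthinned, Mbp was counted in 95.7%, 92.6% and 95.2% of OPCs. Control vOPCs numbered 121, and of the OPC levels theirs had the widest intervals.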
